A study of Mus musculus with 14 samples.

Results

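The DNA replication machinery described here is a set of 51 mouse genes that encode the proteins that open, copy and protect DNA at replication forks, together with enzymes that supply its building blocks. The genes were taken by symbol from the deposited expression table, and all 51 were found among its 35275 genes. They were measured by bulk RNA sequencing in 14 samples of 5 lines of KMF ovarian tumor cells, which derive from C57Bl6 mouse ID8 cells passaged in the animal and were grown without anchorage as tumorspheres for 5 days. Parental KMF cells carry unedited Ptk2, the gene of focal adhesion kinase (FAK). FAK KO cells are 1 clone, KT13, in which CRISPR/Cas9 placed stop codons in Ptk2, and the other 3 lines were made from this clone, so that they share its FAK loss and any other change the clone carries. FAK-WT cells re-express GFP-tagged FAK from a lentivirus, FAK-R454 cells re-express GFP-tagged kinase-inactive FAK, and β-catenin ΔGSK cells express, from a retrovirus that also encodes GFP, a β-catenin that lacks its GSK3β sites. There were 2 samples of FAK-R454 and 3 of each other line. For KMF cells the methods describe independent RNA isolations at different passages, and for the lines made from KT13 and the clone itself they speak of replicates only, so that p-values measure the spread between samples, which may be technical.

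Replication begins where the origin recognition complex marks DNA and, with CDC6 and CDT1, loads the ring-shaped MCM2-7 helicase, while geminin holds CDT1 in check. MCM10, CDC45, GINS and RECQL4 take part in turning the loaded ring into an active helicase. DNA polymerase α-primase lays down primers, polymerases δ and ε extend them on the sliding clamp PCNA, RPA coats single-stranded DNA, and FEN1, DNA2 and LIG1 process and join the fragments of the lagging strand. Most of these genes are known to be expressed in proliferating cells, many of them under E2F transcription factors, so their mRNA in a bulk culture depends on how many cells are cycling. Fewer cycling cells and less mRNA per cycling cell cannot be told apart in these data.

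Each library gave 25390558 to 35289859 fragments assigned to genes. Ptk2 mRNA was 19.0 ± 1.45 FPKM in FAK KO (SD, n = 3), 24.3 ± 0.421 in KMF, 15.5 ± 0.401 in β-catenin ΔGSK, 43.4 ± 1.76 in FAK-WT and 62.4 ± 4.42 in FAK-R454 cells (n = 2 for the last). FPKM, fragments per kilobase of gene scaled to library depth, counts the whole gene and does not check the edited exon. The summed epithelial and mesothelial list (8 of 8 genes) ranged from 1080 to 1820 FPKM over the 14 samples, with Krt8 between 181 and 569 FPKM and Wt1 between 89.4 and 227 as means of the lines, while Krt7 was at or below 0.420 FPKM in every sample and Upk3b between 4.03 and 31.6 as means of the lines. Ptprc, a marker of leukocytes, and Cd3e, a marker of T cells, were at or near 0, and so was the endothelial receptor Kdr. The summed level of the immune list (6 of its 7 genes were found) ranged from 1.09 to 1.91 FPKM in β-catenin ΔGSK samples, from 2.55 to 3.62 in KMF and FAK KO samples, from 4.24 to 4.34 in FAK-R454 samples and from 6.63 to 12.3 in FAK-WT samples, the highest of which was FAK-WT replicate 3, nearly all of it Cd68. The summed fibroblast and pericyte list (5 of 5 genes) ranged from 41.8 to 49.9 FPKM in KMF, from 91.2 to 128 in FAK KO, from 123 to 133 in FAK-R454, from 124 to 146 in FAK-WT and from 30.9 to 45.2 in β-catenin ΔGSK samples, most of it Dcn, with the pericyte receptor Pdgfrb near 0. The summed endothelial list (5 of 5 genes) ranged from 29.6 to 30.0 FPKM in KMF, from 17.2 to 19.3 in FAK KO, FAK-WT and FAK-R454 and from 6.58 to 7.44 in β-catenin ΔGSK samples, most of it Tek. The part of these markers in the results was not tested.

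One library stood apart. In FAK-WT replicate 3, 50 of the 51 replication genes were lower than the mean of FAK-WT replicates 1 and 2, with a median difference of -0.37 on the log2(FPKM + 0.1) scale, and 40 of them were lower by more than 0.2. Of 20 mitosis genes, such as Plk1 and Bub1, all 20 were lower, with a median of -0.53. Of 11627 expressed genes, 58.3% were lower in that library, with a median of -0.03, and 18.5% by more than 0.2. It held 31410807 fragments, within the range of the others. Counts in FAK-WT cells are therefore given with and without it. Since it was set apart by these same genes, leaving it out raises most of them in FAK-WT cells. Counts without it describe its weight and are no separate test.

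Many promoters of these genes hold letters that E2F factors are known to bind. RefSeq promoter windows, which run from 250 bases before to 50 after a start site in the GRCm38.p6 build, were found for 40 of the 51 genes, and none was at hand for Gins1, Gins2, Gins4, Gmnn, Mcm4, Tipin, Prim2, Dscc1, Rfc2, Pole and Recql4. An E2F core, taken as TTTCCCGC, TTTGGCGC, TTTCGCGC or TTTGCCGC on either strand, lay in the windows of 15 of the 40 genes (37.5%), against 2.605% of 27025 genes with a window. The 15 were Orc1, Orc3, Cdc6, Cdt1, Mcm3, Mcm5, Mcm6, Mcm7, Gins3, Pola1, Pold1, Pold3, Pole2, Rfc3 and Lig1. CCAAT, the box bound by NF-Y, was on either strand in 24 of the 40 genes, against 41.1% of all. TTTGAA, the core of the cell cycle homology region known from mitotic genes, was in 5 of the 40 (12.5%), against 20.2% of all. These counts describe letters in a window and not sites in use. The windows of Cdt1, Mcm3, Mcm5 and Lig1 are shown because these 4 genes hold a core and were called higher in each of the 4 lines relative to FAK KO, and they were picked after their values were seen. Mcm2 and Tk1, which were called higher in FAK-R454 cells as well, hold none in their windows. Of the other genes with a core, Mcm6, Pold1, Pold3 and Pole2 were called higher in FAK-WT relative to FAK KO cells and Orc3 lower. Cdc6, Mcm7, Gins3, Pola1 and Rfc3 were not called in that comparison, and Orc1 was not tested. The E2F cores are in capitals, and in Mcm5 a core on each strand overlaps the other.
Cdt1, chr8:122567765-122568064, plus strand: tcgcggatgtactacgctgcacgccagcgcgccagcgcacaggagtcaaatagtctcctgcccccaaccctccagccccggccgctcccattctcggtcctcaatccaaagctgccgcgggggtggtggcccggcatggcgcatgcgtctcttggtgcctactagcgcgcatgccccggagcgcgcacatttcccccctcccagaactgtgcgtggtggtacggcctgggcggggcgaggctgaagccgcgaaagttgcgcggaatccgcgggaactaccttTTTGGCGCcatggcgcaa
Mcm3, chr1:20820263-20820562, minus strand: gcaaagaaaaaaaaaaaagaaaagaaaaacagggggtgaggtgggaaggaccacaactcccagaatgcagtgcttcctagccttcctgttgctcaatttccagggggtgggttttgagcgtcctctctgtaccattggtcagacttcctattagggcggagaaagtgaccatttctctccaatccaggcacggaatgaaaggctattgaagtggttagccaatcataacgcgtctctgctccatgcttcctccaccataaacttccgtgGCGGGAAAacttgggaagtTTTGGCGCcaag
Mcm5, chr8:75109259-75109558, plus strand: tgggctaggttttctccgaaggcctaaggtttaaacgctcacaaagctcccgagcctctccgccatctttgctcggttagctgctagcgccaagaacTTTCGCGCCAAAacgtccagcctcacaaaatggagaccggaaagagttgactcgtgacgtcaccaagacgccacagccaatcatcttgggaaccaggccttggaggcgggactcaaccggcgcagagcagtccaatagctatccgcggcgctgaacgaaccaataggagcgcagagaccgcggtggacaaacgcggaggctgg
Lig1, chr7:13278576-13278875, plus strand, 1 of 3 windows of this gene: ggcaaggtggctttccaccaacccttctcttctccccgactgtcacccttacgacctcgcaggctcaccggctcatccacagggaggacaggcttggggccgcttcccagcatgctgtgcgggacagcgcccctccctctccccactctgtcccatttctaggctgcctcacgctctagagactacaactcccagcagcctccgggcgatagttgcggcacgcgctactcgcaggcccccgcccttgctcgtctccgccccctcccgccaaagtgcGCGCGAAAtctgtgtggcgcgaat
In Cdt1, Mcm3 and Lig1 the cores lay after the annotated start, and in Mcm5 they lay before it.

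By the mean of each line, 33 of the 51 replication genes were lowest in FAK KO cells and 30 were highest in KMF cells. Another 4 were highest in FAK KO cells, among them Orc3, Orc4 and Orc5 of the origin recognition complex. The same counts were not made over all genes, so that these have no background. Lines were compared 2 at a time with limma on log2(FPKM + 0.1), and a gene was called higher or lower at a Benjamini-Hochberg adjusted p under 0.05 over all genes tested, at any fold. Standard errors (SE) come from the same fits. In KMF relative to FAK KO cells 38 of 50 replication genes tested were called higher, where 23.1% of all genes tested were, and 2 were called lower, where 28.7% of all were. The 38 include Orc1 and Dna2, which passed the filter of a mean above 1 FPKM through KMF cells alone, and over the 48 genes above it in both lines 36 were higher. In β-catenin ΔGSK relative to FAK KO cells 27 of 49 were higher (23.7% of all genes) and 4 lower (34.4% of all genes), and 26 of 48 were higher without Dna2, which passed through β-catenin ΔGSK cells alone. In FAK-WT relative to FAK KO cells 17 of 48 were higher (15.6% of all genes) and 3 lower (25.2% of all genes). In FAK-R454 versus FAK KO cells 6 of 48 were higher (9.78% of all genes) and 1 lower (9.89% of all genes), so that here the share of replication genes called higher, 12.5%, lay near the background. The 6 were Cdt1, Mcm2, Mcm3, Mcm5, Lig1 and Tk1. On the log2 scale the median fold change of the replication genes tested was 0.50 in KMF, 0.33 in β-catenin ΔGSK (0.31 without Dna2), 0.26 in FAK-WT and 0.13 in FAK-R454 versus FAK KO cells, and medians of all genes tested were -0.05, -0.09, -0.08 and -0.03. These 4 comparisons share the FAK KO samples and are not independent of each other.

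**Figure D1:**
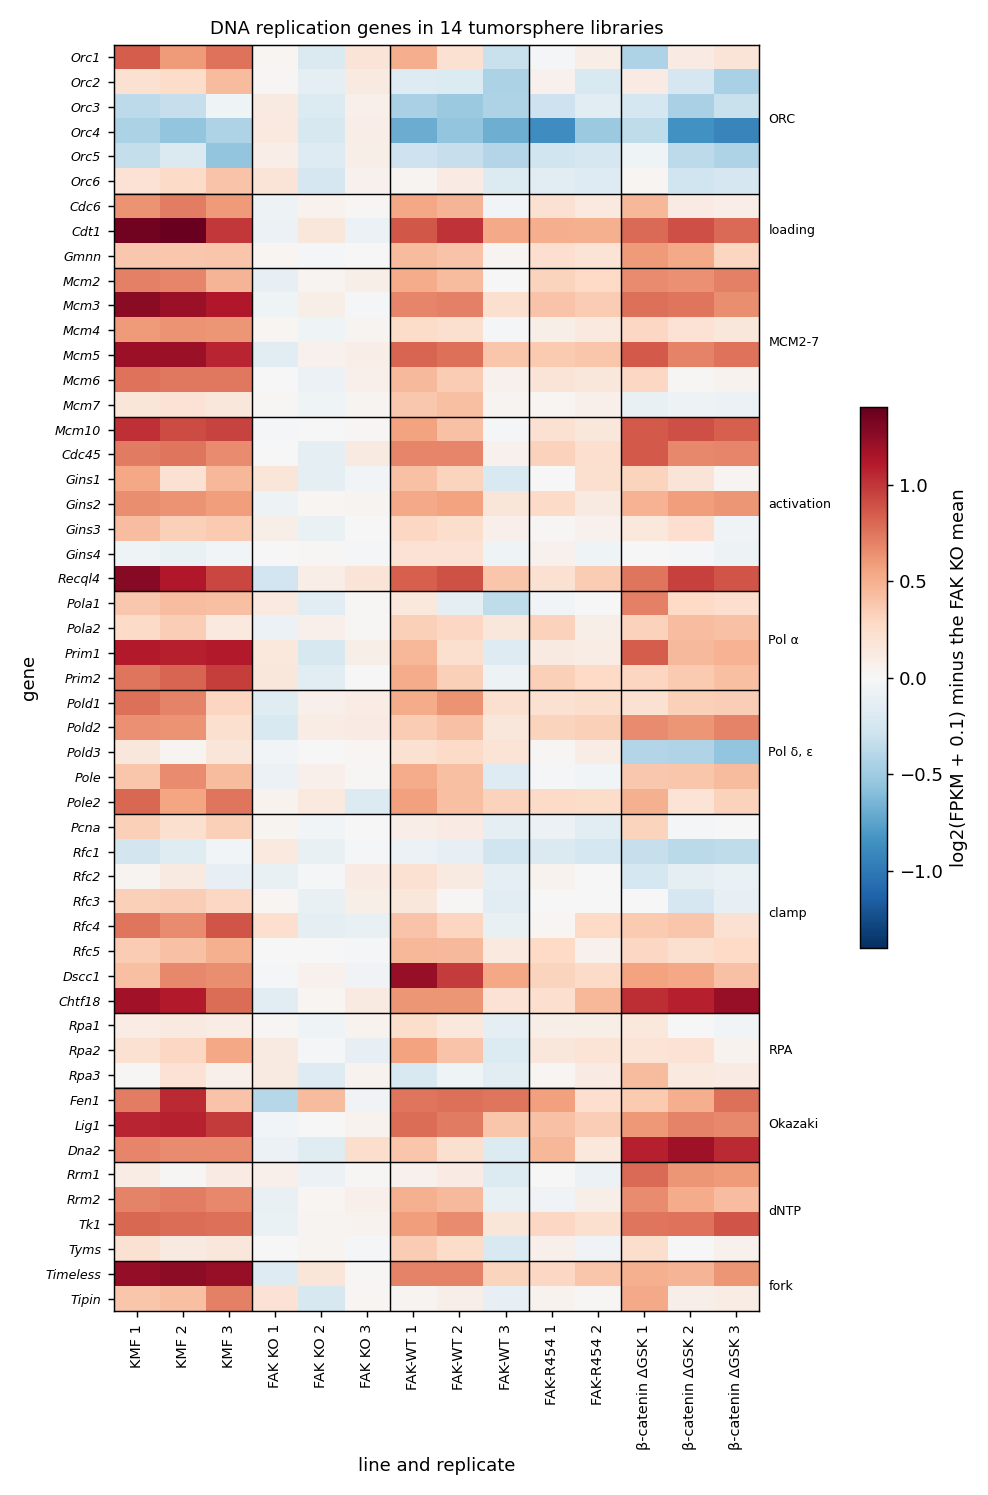
Levels of 51 replication genes (rows, by complex) in 14 libraries (columns) as log2(FPKM + 0.1) minus the mean of the 3 FAK KO samples, with red higher and blue lower. KMF columns are the reddest, Orc4 is blue in all 11 libraries outside FAK KO, and FAK-WT replicate 3 is paler than FAK-WT replicates 1 and 2.

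Most of the changes were small. A log2 fold change of at least 1 was reached by 8 of the genes called higher in KMF relative to FAK KO cells (3.97% of all genes). It was reached by 2 in β-catenin ΔGSK relative to FAK KO cells (5.13% of all genes), namely Chtf18 and Dna2. Dna2 passed the filter through that line alone. In FAK-WT and FAK-R454 versus FAK KO cells 0 reached it (2.91% and 1.93% of all genes). There limma called 17 and 6 genes higher at any fold, and limma-voom on recovered fragments 18 and 8. Over all genes limma-voom called 1860 of 11841 and 1374 of 11818 higher, so that 8 of 48 in FAK-R454 cells lay near the background. Without FAK-WT replicate 3, 31 of 48 replication genes were higher in FAK-WT relative to FAK KO cells (16.7% of all genes) and 3 lower (22.1% of all genes), and the 31 included the 17 called with it, whose log2 fold changes were then between 0.24 (Pold3) and 1.10 (Dscc1). The other 14 were Cdc6, Gmnn, Mcm2, Mcm4, Mcm7, Mcm10, Cdc45, Gins1, Gins4, Prim2, Pole, Rpa2, Rrm2 and Tyms, of which Cdc45 was the highest, at 0.68 (SE 0.10, adjusted p = 0.00192), and Gins4 the lowest, at 0.20 (SE 0.06, adjusted p = 0.0307). The count of higher genes was 7 of 48 without FAK KO replicate 1 (11.7% of all genes), 9 without FAK KO replicate 3 (10.1%), 8 without FAK-WT replicate 1 (12.3%) and 6 without FAK-WT replicate 2 (10.6%), so that without FAK KO replicate 1 or FAK-WT replicate 1 or 2 the share of replication genes lay near the background. Cdt1, Dscc1, Lig1, Mcm3, Mcm5 and Timeless were called higher and Orc3 and Orc4 lower in FAK-WT relative to FAK KO cells in each alternative that tested them and set no fold threshold. The 6 higher calls in FAK-R454 versus FAK KO cells fell to 0 when either FAK-R454 sample was left out (2.63% and 2.83% of all genes), and were 10 without FAK KO replicate 2 (16.3% of all genes) and 3 without FAK KO replicate 3 (5.87% of all genes), near the background in each. With either FAK-R454 sample left out, the log2 fold changes of the 6 genes called with all samples were between 0.22 (Tk1) and 0.51 (Cdt1). With both FAK-R454 samples they were between 0.26 (Tk1) and 0.51 (Cdt1).

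**Figure D2:**
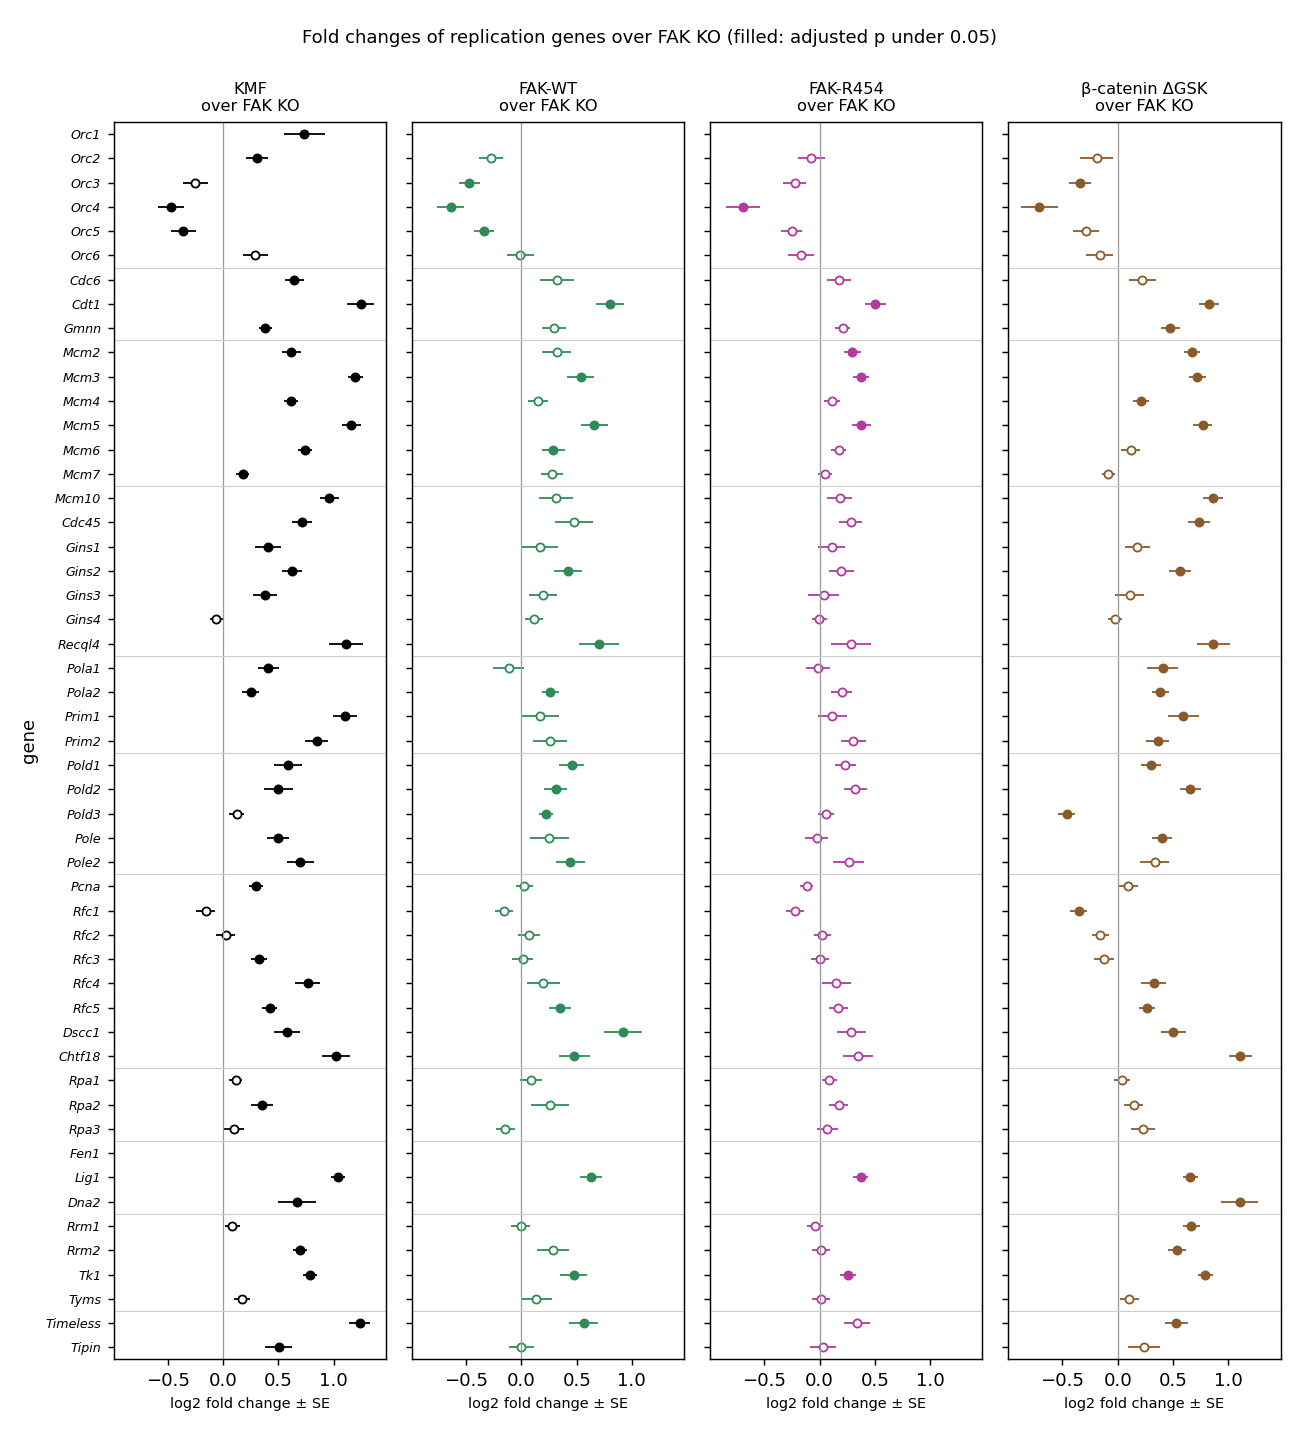
Log2 fold change with its standard error of each replication gene tested (rows) in KMF, β-catenin ΔGSK, FAK-WT and FAK-R454 versus FAK KO cells, with filled points for an adjusted p under 0.05. Cdt1, Mcm3, Mcm5, Lig1 and Tk1 are filled to the right in all 4 panels and Orc4 is filled to the left in all 4, while genes with no point had a mean FPKM of 1 or less in both lines.

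Some subunits of the origin recognition complex were called lower relative to FAK KO cells, in lines where many genes were. In FAK-WT 3 of 5 tested were lower (Orc3, Orc4 and Orc5; 25.2% of all genes), in β-catenin ΔGSK 2 of 5 (Orc3 and Orc4; 34.4% of all genes) and in FAK-R454 1 of 5 (Orc4; 9.89% of all genes), with 0 called higher in these lines. In KMF 2 of 6 were lower (Orc4 and Orc5; 28.7% of all genes) and 2 higher (Orc1 and Orc2; 23.1% of all genes). The median log2 fold change of the complex in FAK-WT relative to FAK KO cells was -0.34. Orc4 mRNA (chromosome 2, 48902824 to 48950277) read 2.94, 2.70 and 2.95 FPKM in KMF, 4.41, 3.42 and 4.28 in FAK KO, 2.15 and 2.76 in FAK-R454, 2.45, 2.71 and 2.46 in FAK-WT and 3.11, 2.18 and 2.07 in β-catenin ΔGSK samples. The 3 FAK KO samples were the highest of all 14 and overlapped with no other line. The log2 fold change of Orc4 was -0.64 (SE 0.12, adjusted p = 0.00475) in FAK-WT, -0.70 (SE 0.15, adjusted p = 0.0175) in FAK-R454, -0.71 (SE 0.17, adjusted p = 0.00666) in β-catenin ΔGSK and -0.47 (SE 0.12, adjusted p = 0.00888) in KMF relative to FAK KO cells, all by limma. Orc4 was not called in FAK-R454 versus FAK KO cells without FAK KO replicate 3 (adjusted p = 0.0599, limma). With FAK-R454 replicate 1 left out its log2 fold change there was -0.52.

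Orc3 read 7.91, 8.19 and 9.80 FPKM in KMF, 11.2, 8.98 and 10.8 in FAK KO, 8.35 and 9.18 in FAK-R454, 7.45, 7.10 and 7.58 in FAK-WT and 8.60, 7.45 and 8.23 in β-catenin ΔGSK samples. Its FAK-WT and β-catenin ΔGSK values lay below those of FAK KO with no overlap, and KMF and FAK-R454 values overlapped with FAK KO. Orc3 fell by 0.47 on the log2 scale in FAK-WT and by 0.34 in β-catenin ΔGSK relative to FAK KO cells (adjusted p = 0.00590 and 0.0195, limma). Orc5 read 10.1, 11.05 and 8.63 FPKM in KMF, 13.6, 11.2 and 13.4 in FAK KO, 10.48 and 10.8 in FAK-R454, 10.3, 10.2 and 9.53 in FAK-WT and 12.1, 9.84 and 9.42 in β-catenin ΔGSK samples. FAK KO replicate 2 was the lowest of its line and still above every KMF, FAK-WT and FAK-R454 sample, while β-catenin ΔGSK replicate 1 lay within the FAK KO range. Orc5 fell by 0.34 in FAK-WT and by 0.36 in KMF relative to FAK KO cells (adjusted p = 0.0172 and 0.0232, limma). Orc3 was not called in β-catenin ΔGSK relative to FAK KO cells without FAK KO replicate 1 or 3 or β-catenin ΔGSK replicate 2 (adjusted p = 0.0691 to 0.0785, limma). Under median-of-ratios scaling it was at -0.24 there (adjusted p = 0.0644). Orc5 was not called in FAK-WT relative to FAK KO cells without FAK KO replicate 1 or 3 (adjusted p = 0.0564 to 0.0757, limma). Orc5 was not called in KMF relative to FAK KO cells without KMF replicate 1 or 3 or FAK KO replicate 1 or 3 (adjusted p = 0.0539 to 0.0829, limma). With each chromosome centred on its own median Orc5 was at -0.21 in KMF relative to FAK KO cells (adjusted p = 0.171, limma).

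Orc6, which joins the ring of the other subunits, read 12.9, 13.5 and 14.7 FPKM in KMF, 12.7, 9.44 and 11.6 in FAK KO, 10.1 and 9.80 in FAK-R454, 11.46, 12.1 and 9.75 in FAK-WT and 11.3, 9.20 and 9.44 in β-catenin ΔGSK samples. KMF samples were the highest, and FAK-WT samples lay within the FAK KO range, with a log2 fold change of -0.01 (SE 0.12, adjusted p = 0.942). Orc2 was called higher in KMF relative to FAK KO cells, with a log2 fold change of 0.30 (adjusted p = 0.0321, limma), but it was at 0.07 (adjusted p = 0.614) with each chromosome centred, where genes of chromosome 1 lay 0.25 above the others. Orc1, the subunit whose level is known to follow the cell cycle, was low everywhere, at 1.02 ± 0.0980 FPKM in KMF and 0.577 ± 0.0903 in FAK KO cells (SD, n = 3 each), and since it passed the filter through KMF alone, its call there is no support. Orc2 was not called in KMF relative to FAK KO cells without KMF replicate 2 or 3 or FAK KO replicate 1 or 2 (adjusted p = 0.0577 to 0.0895, limma). Of the exon bases of Orc2, 29.8% also lie in Nif3l1 on the opposite strand, and the counting was not stated to use strand.

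Of the 3 genes of helicase loading, 3 were called higher in KMF, 2 in β-catenin ΔGSK, 1 in FAK-WT (3 without replicate 3) and 1 in FAK-R454 versus FAK KO cells (limma). The shares of all genes were 23.1%, 23.7%, 15.6% (16.7% without replicate 3) and 9.78%. Cdt1 (chromosome 8, 122568015 to 122573128), which brings the helicase to the origin complex, read 21.003, 21.5 and 16.3 FPKM in KMF, 7.69, 9.15 and 7.72 in FAK KO, 11.7 and 11.6 in FAK-R454, 14.98, 16.5 and 11.8 in FAK-WT and 14.2, 15.4 and 14.2 in β-catenin ΔGSK samples. FAK KO samples were the lowest and overlapped with no other line, and KMF and FAK-WT samples overlapped with each other. Its log2 fold change was 1.24 (SE 0.12, adjusted p = 6.24e-05) in KMF, 0.83 (SE 0.09, adjusted p = 7.73e-05) in β-catenin ΔGSK, 0.80 (SE 0.13, adjusted p = 0.00221) in FAK-WT and 0.51 (SE 0.09, adjusted p = 0.00899) in FAK-R454 versus FAK KO cells. In linear terms Cdt1 was 2.40 times the FAK KO level in KMF cells and 1.42 times in FAK-R454 cells.

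Gmnn, the inhibitor of CDT1, read 18.9, 18.9 and 19.01 FPKM in KMF, 14.8, 14.2 and 14.5 in FAK KO, 17.1 and 16.5 in FAK-R454, 19.8, 19.2 and 14.9 in FAK-WT and 21.9, 20.97 and 17.9 in β-catenin ΔGSK samples. FAK-WT replicate 3 was next to the FAK KO samples and the other FAK-WT samples were well above them. Gmnn was called higher in KMF (0.38, adjusted p = 8.18e-04, limma) and in β-catenin ΔGSK relative to FAK KO cells (0.48, adjusted p = 0.00156), and its log2 fold change in FAK-WT cells was 0.30 (SE 0.11, adjusted p = 0.0524) with replicate 3 and 0.43 (SE 0.06, adjusted p = 0.00210) without it. Cdc6, the ATPase that closes the origin complex, was called higher in KMF relative to FAK KO cells (0.64, adjusted p = 4.52e-04, limma). In FAK-WT relative to FAK KO cells Cdc6 was at 0.32 (adjusted p = 0.122) and, without replicate 3, at 0.51 (SE 0.10, adjusted p = 0.00732).

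Of the 6 subunits of the MCM2-7 helicase ring, 6 were called higher in KMF, 4 in β-catenin ΔGSK, 3 in FAK-WT and 3 in FAK-R454 versus FAK KO cells. Of all genes 23.1%, 23.7%, 15.6% and 9.78% were. All 6 subunits were higher in FAK-WT relative to FAK KO cells without FAK-WT replicate 3 (16.7% of all genes). With either FAK-R454 sample left out, log2 fold changes of Mcm2, Mcm3 and Mcm5 over FAK KO were between 0.28 and 0.40. The 6 proteins form 1 ring together. Mcm3 (chromosome 1, 20802968 to 20820312) read 29.3, 28.2 and 26.6 FPKM in KMF, 11.7, 12.9 and 12.01 in FAK KO, 16.1 and 15.6 in FAK-R454, 19.6, 19.9 and 14.2 in FAK-WT and 20.8, 20.6 and 19.2 in β-catenin ΔGSK samples. Its FAK KO samples were the lowest with no overlap, KMF samples were the highest with no overlap, and FAK-WT replicate 3 lay below both FAK-R454 samples. The log2 fold change of Mcm3 relative to FAK KO was 1.19 (SE 0.07, adjusted p = 3.79e-06) in KMF, 0.72 (SE 0.07, adjusted p = 5.17e-05) in β-catenin ΔGSK, 0.54 (SE 0.13, adjusted p = 0.0115) in FAK-WT and 0.38 (SE 0.07, adjusted p = 0.0113) in FAK-R454 cells.

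Mcm5 read 27.3, 27.5 and 24.9 FPKM in KMF, 10.6, 12.3 and 12.6 in FAK KO, 15.3 and 15.5 in FAK-R454, 20.8, 20.3 and 15.5 in FAK-WT and 21.5, 19.2 and 20.03 in β-catenin ΔGSK samples. FAK KO samples again overlapped with no other line. Its log2 fold change relative to FAK KO was 1.16 in KMF, 0.77 in β-catenin ΔGSK, 0.66 in FAK-WT and 0.38 in FAK-R454 cells (adjusted p = 1.20e-05, 1.07e-04, 0.00438 and 0.0226, limma). Mcm4 read 18.4, 18.9 and 18.7 FPKM in KMF, 12.4, 11.6 and 12.5 in FAK KO, 12.9 and 13.3 in FAK-R454, 14.6, 14.2 and 11.9 in FAK-WT and 14.9, 13.96 and 13.5 in β-catenin ΔGSK samples. KMF samples stood clear of the rest, and FAK-WT replicate 3 lay within the FAK KO range. Mcm4 was called higher in KMF (0.62, adjusted p = 8.41e-05) and β-catenin ΔGSK cells (0.21, adjusted p = 0.0312) and was at 0.15 in FAK-WT cells (adjusted p = 0.201, limma). Mcm4 was not called in β-catenin ΔGSK relative to FAK KO cells without FAK KO replicate 1, 2 or 3 or β-catenin ΔGSK replicate 1 or 2 (adjusted p = 0.0543 to 0.0915, limma).

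Mcm7 read 55.9, 57.3 and 55.7 FPKM in KMF, 50.5, 47.9 and 51.2 in FAK KO, 50.8 and 52.4 in FAK-R454, 64.8, 66.8 and 50.99 in FAK-WT and 46.5, 47.4 and 46.9 in β-catenin ΔGSK samples. In this subunit FAK-WT replicates 1 and 2 were the highest of all samples, β-catenin ΔGSK samples lay below the FAK KO range, and FAK-WT replicate 3 was level with FAK KO. The log2 fold change of Mcm7 was 0.18 (SE 0.06, adjusted p = 0.0311) in KMF and 0.28 (SE 0.10, adjusted p = 0.0563) in FAK-WT relative to FAK KO cells, and 0.40 (SE 0.06, adjusted p = 0.00211) in FAK-WT cells without replicate 3. Mcm7 was not called in KMF relative to FAK KO cells without KMF replicate 1 or 2 or FAK KO replicate 2 or 3 (adjusted p = 0.0618 to 0.111, limma). With the replicate number as a block its adjusted p there was 0.0946. Mcm6 rose in KMF (0.74, adjusted p = 2.90e-05, limma) and FAK-WT relative to FAK KO cells (0.29, adjusted p = 0.0489), where its groups overlapped. Mcm6 was not called in FAK-WT relative to FAK KO cells without FAK KO replicate 1, 2 or 3 or FAK-WT replicate 1 or 2 (adjusted p = 0.0827 to 0.151, limma). With the replicate number as a block it was at 0.29 there (adjusted p = 0.0587), and with each chromosome centred at 0.35 (adjusted p = 0.0515). Mcm2 was called higher in KMF, β-catenin ΔGSK and FAK-R454 versus FAK KO cells, with log2 fold changes of 0.62, 0.67 and 0.30 (adjusted p = 4.57e-04, 7.58e-05 and 0.0325, limma). In FAK-WT relative to FAK KO cells Mcm2 was at 0.32 (adjusted p = 0.0820), and at 0.48 (SE 0.08, adjusted p = 0.00290) without replicate 3.

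**Figure D3:**
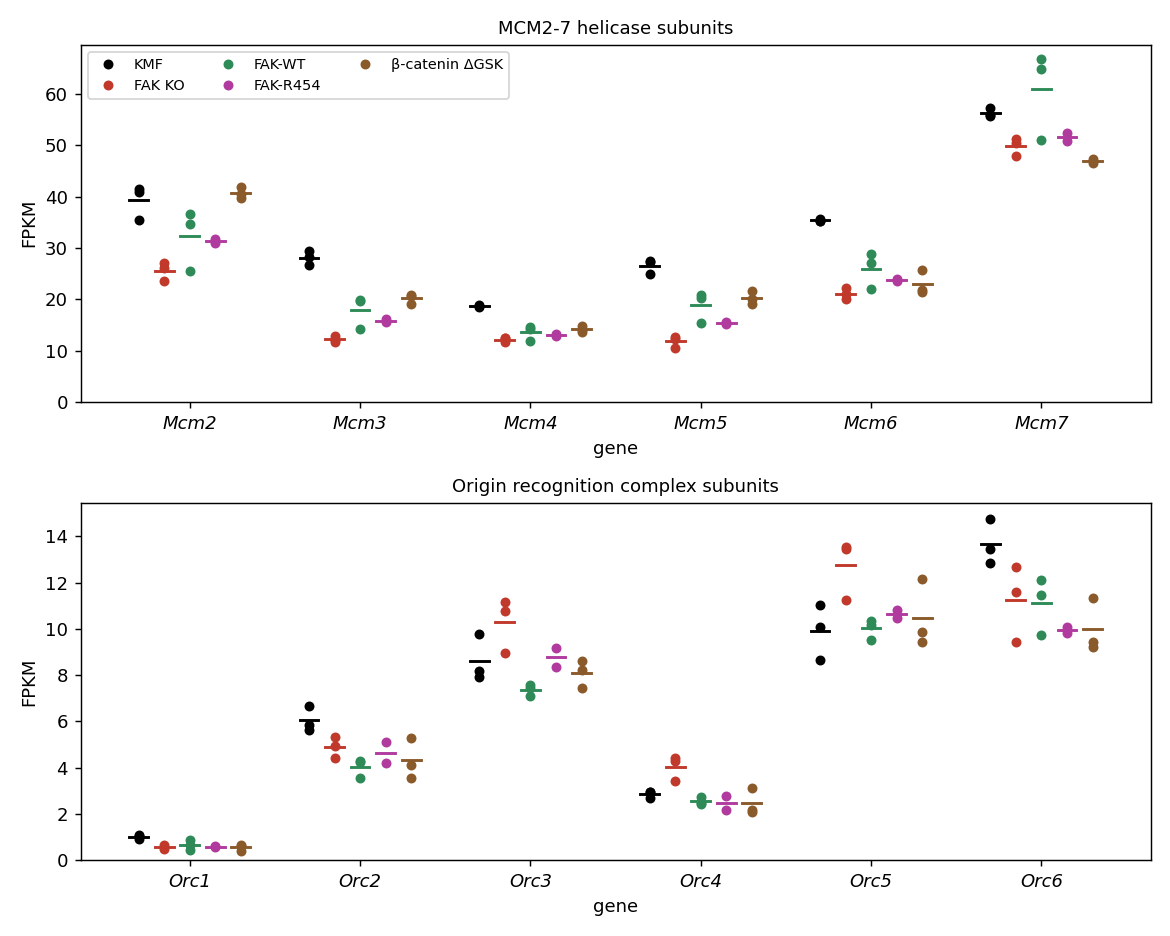
FPKM of each MCM2-7 subunit (top) and each origin recognition complex subunit (bottom) in the 5 lines, with a point per sample and a bar at the line's mean. FAK KO points are the lowest for Mcm3 and Mcm5, at 10.6 to 12.9 FPKM, and the highest for Orc4, at 3.42 to 4.41 FPKM.

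Of the 7 genes of helicase activation and replisome assembly, 6 were called higher in KMF, 4 in β-catenin ΔGSK and 2 in FAK-WT relative to FAK KO cells (limma), or 6 in FAK-WT cells without replicate 3. Among all genes these shares were 23.1%, 23.7%, 15.6% and 16.7%. Recql4 (chromosome 15, 76703553 to 76710559), a RecQ helicase that acts at origin firing, read 3.68, 3.31 and 2.88 FPKM in KMF, 1.19, 1.56 and 1.67 in FAK KO, 1.72 and 1.89 in FAK-R454, 2.69, 2.79 and 1.94 in FAK-WT and 2.52, 2.94 and 2.78 in β-catenin ΔGSK samples. FAK KO samples were the lowest with no overlap, and FAK-WT samples lay between FAK-R454 and KMF. Its log2 fold change was 1.11 (SE 0.15, adjusted p = 4.63e-04) in KMF, 0.86 (SE 0.15, adjusted p = 0.00123) in β-catenin ΔGSK, 0.70 (SE 0.18, adjusted p = 0.0171) in FAK-WT and 0.28 (SE 0.18, adjusted p = 0.277) in FAK-R454 versus FAK KO cells. The median of 479 genes of chromosome 15 lay 0.39 above that of the other chromosomes in FAK-WT relative to FAK KO cells, and with each chromosome centred on its own median Recql4 was at 0.33 (adjusted p = 0.157, limma). Recql4 was not called in FAK-WT relative to FAK KO cells without FAK KO replicate 1 or FAK-WT replicate 1 or 2 (adjusted p = 0.0529 to 0.0656, limma).

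Mcm10, which helps to activate the helicase, read 4.90, 4.53 and 4.63 FPKM in KMF, 2.33, 2.37 and 2.38 in FAK KO, 2.74 and 2.64 in FAK-R454, 3.53, 3.16 and 2.32 in FAK-WT and 4.34, 4.49 and 4.31 in β-catenin ΔGSK samples. KMF and β-catenin ΔGSK samples formed a high group, and FAK-WT replicate 3 lay just below FAK KO. Mcm10 rose by 0.96 in KMF and 0.87 in β-catenin ΔGSK relative to FAK KO cells (adjusted p = 4.34e-05 and 6.84e-05, limma) and was at 0.32 in FAK-WT cells (adjusted p = 0.131). Cdc45, a subunit of the active helicase, rose by 0.74 in β-catenin ΔGSK and 0.71 in KMF relative to FAK KO cells (adjusted p = 3.09e-04 and 2.79e-04, limma). In FAK-WT cells Cdc45 was at 0.47 (adjusted p = 0.0525), and at 0.68 without replicate 3.

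The 4 GINS subunits, which form 1 complex, differed. Gins2 was called higher in KMF (0.62), β-catenin ΔGSK (0.56) and FAK-WT (0.42) relative to FAK KO cells (adjusted p = 5.61e-04, 0.00127 and 0.0293, limma). Gins2 was not called in FAK-WT relative to FAK KO cells without FAK KO replicate 1 or 3 or FAK-WT replicate 1 or 2 (adjusted p = 0.0753 to 0.113, limma). Of its exon bases 67.3% also lie in Gse1 on the opposite strand, which was itself at 8.25 to 13.7 FPKM. Gins1 and Gins3 were called higher in KMF relative to FAK KO cells (0.41 and 0.38, adjusted p = 0.0173 and 0.0203). Gins1 was not called in KMF relative to FAK KO cells without KMF replicate 1 or FAK KO replicate 2 or 3 (adjusted p = 0.0537 to 0.0694, limma). Gins3 was not called in KMF relative to FAK KO cells without KMF replicate 1 or 2 or FAK KO replicate 3 (adjusted p = 0.0511 to 0.0782, limma). Gins3 was at 0.26 (adjusted p = 0.1100, limma) with each chromosome centred. Gins4 read 20.7, 20.2 and 20.9 FPKM in KMF, 21.5, 21.8 and 21.2 in FAK KO, 22.3 and 20.5 in FAK-R454, 24.8, 24.7 and 20.6 in FAK-WT and 21.6, 21.3 and 20.5 in β-catenin ΔGSK samples. FAK-WT replicates 1 and 2 were the highest and the other 12 samples lay close together, and with all samples Gins4 was not called in any of the 4 comparisons with FAK KO.

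DNA polymerase α-primase had 4 of 4 subunits called higher in KMF and 4 of 4 in β-catenin ΔGSK relative to FAK KO cells, and 1 in FAK-WT cells, or 2 without FAK-WT replicate 3. All genes tested gave 23.1%, 23.7%, 15.6% and 16.7% in these fits, so that 1 of 4 in FAK-WT cells lay near the background. Prim1, the catalytic subunit of primase, read 7.33, 7.25 and 7.37 FPKM in KMF, 3.73, 2.84 and 3.55 in FAK KO, 3.66 and 3.61 in FAK-R454, 4.65, 3.93 and 2.94 in FAK-WT and 6.13, 4.62 and 4.73 in β-catenin ΔGSK samples. KMF samples stood above every other line, FAK-WT samples overlapped with FAK KO, and β-catenin ΔGSK samples lay above FAK KO, below KMF and overlapped with FAK-WT. Its log2 fold change was 1.10 (SE 0.11, adjusted p = 7.03e-05) in KMF, 0.60 (SE 0.14, adjusted p = 0.00713) in β-catenin ΔGSK and 0.17 (SE 0.17, adjusted p = 0.457) in FAK-WT relative to FAK KO cells. Prim2, its partner subunit, read 6.85, 7.16 and 7.97 FPKM in KMF, 4.51, 3.60 and 4.0001 in FAK KO, 5.09 and 4.90 in FAK-R454, 5.81, 5.08 and 3.83 in FAK-WT and 4.97, 5.23 and 5.43 in β-catenin ΔGSK samples. FAK-WT replicate 3 lay within the FAK KO range, and the other FAK-WT samples were above it. In FAK-WT relative to FAK KO cells Prim2 was at 0.26 (adjusted p = 0.203, limma), and at 0.43 (SE 0.12, adjusted p = 0.0256) without replicate 3. Prim2 rose by 0.85 in KMF cells and 0.36 with β-catenin ΔGSK (adjusted p = 2.49e-04 and 0.0155, limma). Prim2 was not called in β-catenin ΔGSK relative to FAK KO cells without FAK KO replicate 3 or β-catenin ΔGSK replicate 3 (adjusted p = 0.0517 to 0.0529, limma).

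Pola1, the polymerase subunit itself, read 5.39, 5.61 and 5.58 FPKM in KMF, 4.56, 3.72 and 4.196 in FAK KO, 4.03 and 4.17 in FAK-R454, 4.60, 3.77 and 3.21 in FAK-WT and 6.81, 5.03 and 4.91 in β-catenin ΔGSK samples. FAK-WT replicate 3 was the lowest of all samples, KMF samples were tight, and β-catenin ΔGSK samples were above FAK KO. Pola1 was called higher in KMF (0.41, adjusted p = 0.00673) and β-catenin ΔGSK relative to FAK KO cells (0.41, adjusted p = 0.0344) and was at -0.11 in FAK-WT cells (adjusted p = 0.534, limma). Pola1 was not called in β-catenin ΔGSK relative to FAK KO cells without FAK KO replicate 2 or 3 or β-catenin ΔGSK replicate 1 (adjusted p = 0.0761 to 0.0978, limma). Pola2, the accessory subunit, read 12.4, 12.97 and 11.2 FPKM in KMF, 9.62, 10.8 and 10.3 in FAK KO, 12.8 and 10.8 in FAK-R454, 12.9, 12.5 and 11.4 in FAK-WT and 12.8, 13.8 and 13.7 in β-catenin ΔGSK samples. It was the subunit called higher in FAK-WT relative to FAK KO cells (0.26, SE 0.08, adjusted p = 0.0278), where the groups did not overlap. Pola2 was not called in FAK-WT relative to FAK KO cells without FAK KO replicate 1 or 3 or FAK-WT replicate 1 or 2 (adjusted p = 0.0750 to 0.0988, limma). Pola2 was not called in KMF relative to FAK KO cells without KMF replicate 1 or 2 or FAK KO replicate 1 or 3 (adjusted p = 0.0759 to 0.110, limma). In FAK-WT relative to FAK KO cells it was at 0.17 (adjusted p = 0.123, limma) with each chromosome centred.

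Of 5 subunits of polymerases δ and ε, 4 were called higher in FAK-WT (5 without replicate 3), 4 in KMF and 3 in β-catenin ΔGSK relative to FAK KO cells. The background was 15.6% (16.7% without replicate 3), 23.1% and 23.7% of all genes. With each chromosome centred the calls of Pold1 (0.30, adjusted p = 0.0600), Pold2 (0.26, adjusted p = 0.0570) and Pold3 in FAK-WT cells were lost and Pole2 alone stayed (limma). Pold1, the catalytic subunit of polymerase δ, read 24.2, 22.9 and 17.5 FPKM in KMF, 12.5, 14.9 and 15.2 in FAK KO, 16.5 and 16.9 in FAK-R454, 20.3, 21.9 and 16.6 in FAK-WT and 16.5, 17.9 and 18.04 in β-catenin ΔGSK samples. FAK KO samples were the lowest with no overlap, and FAK-WT replicate 3 was level with the FAK-R454 samples. For Pold1 the log2 fold change was 0.59 (SE 0.13, adjusted p = 0.00529) in KMF, 0.45 (SE 0.12, adjusted p = 0.0159) in FAK-WT and 0.30 (SE 0.09, adjusted p = 0.0190) in β-catenin ΔGSK relative to FAK KO cells. Pold1 was not called in FAK-WT relative to FAK KO cells without FAK KO replicate 1 or FAK-WT replicate 2 (adjusted p = 0.0554 to 0.0562, limma). Pold1 was not called in β-catenin ΔGSK relative to FAK KO cells without FAK KO replicate 1 or β-catenin ΔGSK replicate 2 or 3 (adjusted p = 0.0526 to 0.0669, limma).

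Pold3, an accessory subunit of polymerase δ, went in opposite directions. It read 12.02, 11.03 and 12.1 FPKM in KMF, 10.498, 10.8 and 10.95 in FAK KO, 10.8 and 11.6 in FAK-R454, 12.4, 13.01 and 12.3 in FAK-WT and 8.05, 8.01 and 7.30 in β-catenin ΔGSK samples. β-catenin ΔGSK samples were the lowest of all 14 with no overlap, and FAK-WT samples lay above FAK KO. Pold3 fell by 0.46 on the log2 scale in β-catenin ΔGSK relative to FAK KO cells (SE 0.08, adjusted p = 8.74e-04) and rose by 0.23 in FAK-WT relative to FAK KO cells (SE 0.06, adjusted p = 0.0226, limma), where it was at 0.07 (adjusted p = 0.437) with each chromosome centred. Pold3 was not called in FAK-WT relative to FAK KO cells without FAK KO replicate 3 or FAK-WT replicate 1 or 2 (adjusted p = 0.0630 to 0.103, limma). The replicate number as a block gave an adjusted p of 0.0522 there. Pold2 rose by 0.66 in β-catenin ΔGSK, 0.50 in KMF and 0.31 in FAK-WT cells (adjusted p = 3.87e-04, 0.0120 and 0.0429). Pold2 was not called in FAK-WT relative to FAK KO cells without FAK KO replicate 1 or 3 or FAK-WT replicate 1 or 2 (adjusted p = 0.0597 to 0.134, limma). Pole, the catalytic subunit of polymerase ε, rose by 0.49 in KMF and 0.40 in β-catenin ΔGSK cells, and Pole2, its second subunit, by 0.70 in KMF and 0.44 in FAK-WT cells (adjusted p = 0.00418, 0.00589, 0.00180 and 0.0256, limma). Pole2 was not called in FAK-WT relative to FAK KO cells without FAK KO replicate 1 or 3 or FAK-WT replicate 1 or 2 (adjusted p = 0.0519 to 0.0972, limma).

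Of 8 genes of the sliding clamp and its loaders, 6 were called higher in KMF, 4 in β-catenin ΔGSK and 3 in FAK-WT relative to FAK KO cells, with or without FAK-WT replicate 3. Over all genes 23.1%, 23.7% and 15.6% were higher (16.7% without FAK-WT replicate 3). Dscc1 (chromosome 15, 55076099 to 55090491) and Chtf18, which belong to the alternative loader that is known for its role in sister chromatid cohesion, had the highest log2 fold changes of the group in FAK-WT relative to FAK KO cells. Dscc1 read 2.30, 2.76 and 2.72 FPKM in KMF, 1.68, 1.78 and 1.63 in FAK KO, 2.13 and 2.06 in FAK-R454, 4.10, 3.45 and 2.51 in FAK-WT and 2.55, 2.52 and 2.28 in β-catenin ΔGSK samples. FAK-WT replicates 1 and 2 were the highest of all samples, and FAK KO samples overlapped with no other line. Dscc1 had a log2 fold change of 0.92 (SE 0.17, adjusted p = 0.00460) in FAK-WT, 0.58 (SE 0.12, adjusted p = 0.00357) in KMF, 0.50 (SE 0.11, adjusted p = 0.00527) in β-catenin ΔGSK and 0.29 (SE 0.13, adjusted p = 0.151) in FAK-R454 versus FAK KO cells, and in FAK-WT cells it was 0.54 (adjusted p = 0.0390, limma) with each chromosome centred.

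Chtf18 (chromosome 17, 25718926 to 25727419) read 5.80, 5.54 and 4.39 FPKM in KMF, 2.26, 2.56 and 2.75 in FAK KO, 2.97 and 3.50 in FAK-R454, 3.91, 3.92 and 2.91 in FAK-WT and 5.24, 5.44 and 5.97 in β-catenin ΔGSK samples. KMF and β-catenin ΔGSK samples formed the high group, FAK KO samples were the lowest, and FAK-WT and FAK-R454 samples overlapped with each other. Its log2 fold change was 1.11 (SE 0.11, adjusted p = 4.25e-05) in β-catenin ΔGSK, 1.02 (SE 0.13, adjusted p = 2.81e-04) in KMF and 0.48 (SE 0.14, adjusted p = 0.0274) in FAK-WT relative to FAK KO cells. With each chromosome centred the rise in FAK-WT cells was 0.30 (adjusted p = 0.139, limma), and chromosome 17 as a whole lay 0.24 above the others there. Chtf18 was not called in FAK-WT relative to FAK KO cells without FAK KO replicate 1 or 3 or FAK-WT replicate 1 or 2 (adjusted p = 0.0505 to 0.0980, limma).

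Rfc1, the large subunit of the standard clamp loader, read 20.9, 22.2 and 24.3 FPKM in KMF, 27.5, 23.3 and 24.5 in FAK KO, 21.8 and 21.1 in FAK-R454, 23.6, 23.2 and 20.6 in FAK-WT and 19.99, 19.2 and 19.5 in β-catenin ΔGSK samples. β-catenin ΔGSK samples lay below every FAK KO sample, and Rfc1 fell by 0.35 on the log2 scale (SE 0.08, adjusted p = 0.00418, limma). Genes of chromosome 5, which holds Rfc1, lay 0.24 below the others there, and with each chromosome centred Rfc1 was at -0.13 (adjusted p = 0.210). In FAK-WT relative to FAK KO cells Rfc1 was at -0.16 (adjusted p = 0.163). Rfc4 and Rfc5, small subunits shared by the loaders, were called higher in KMF (0.76 and 0.42, adjusted p = 6.95e-04 and 0.00120) and β-catenin ΔGSK relative to FAK KO cells (0.33 and 0.26, adjusted p = 0.0380 and 0.0115, limma), and Rfc5 also in FAK-WT cells (0.35, adjusted p = 0.0227). Rfc5 was not called in FAK-WT relative to FAK KO cells without FAK KO replicate 1 or 3 or FAK-WT replicate 1 or 2 (adjusted p = 0.0587 to 0.0847, limma). Rfc5 was not called in β-catenin ΔGSK relative to FAK KO cells without FAK KO replicate 3 (adjusted p = 0.0542, limma). Rfc4 was not called in β-catenin ΔGSK relative to FAK KO cells without FAK KO replicate 2 or 3 or β-catenin ΔGSK replicate 1 or 2 (adjusted p = 0.0734 to 0.132, limma). Rfc3 rose in KMF cells (0.32, adjusted p = 0.00609), and Rfc2 was not called in any of the 4 comparisons with FAK KO.

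Pcna, the clamp, had the highest FPKM of the 51 genes. It read 131, 122 and 131 FPKM in KMF, 107, 102 and 104 in FAK KO, 98.6 and 94.1 in FAK-R454, 112, 113 and 95.2 in FAK-WT and 129.6, 102 and 104 in β-catenin ΔGSK samples. KMF samples lay above FAK KO, FAK-R454 samples lay below it, FAK-WT samples lay on both sides, and β-catenin ΔGSK replicate 1 stood above the other 2 of its line. Pcna was called higher in KMF relative to FAK KO cells (0.30, SE 0.06, adjusted p = 0.00394) and was at 0.09 in β-catenin ΔGSK, 0.03 in FAK-WT and -0.12 in FAK-R454 cells (adjusted p = 0.401, 0.796 and 0.203, limma).

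The RPA trimer, which binds single-stranded DNA, had 1 of 3 subunits called higher in KMF relative to FAK KO cells, with median log2 fold changes of 0.11 for KMF and 0.09 for FAK-WT. That count lay near the 23.1% of all genes called higher in KMF cells. Rpa2 read 10.9, 11.48 and 13.7 FPKM in KMF, 10.3, 9.26 and 8.69 in FAK KO, 10.4 and 10.7 in FAK-R454, 13.9, 12.4 and 8.24 in FAK-WT and 10.7, 10.8 and 9.71 in β-catenin ΔGSK samples. FAK-WT replicate 3 was the lowest of all 14 samples and FAK-WT replicate 1 the highest. Rpa2 was called higher in KMF relative to FAK KO cells (0.35, SE 0.10, adjusted p = 0.0199) and was at 0.26 in FAK-WT cells (adjusted p = 0.255, limma), or at 0.48 (SE 0.09, adjusted p = 0.00643) without replicate 3. Rpa2 was not called in KMF relative to FAK KO cells without FAK KO replicate 3 (adjusted p = 0.0783, limma). Rpa3 read 19.2, 21.9 and 20.03 FPKM in KMF, 20.7, 16.8 and 19.7 in FAK KO, 19.4 and 20.5 in FAK-R454, 16.4, 18.2 and 16.9 in FAK-WT and 25.8, 20.8 and 20.6 in β-catenin ΔGSK samples. FAK-WT samples lay below every KMF, FAK-R454 and β-catenin ΔGSK sample and overlapped with FAK KO, with a log2 fold change of -0.15 (SE 0.09, adjusted p = 0.216) in FAK-WT relative to FAK KO cells. Rpa1 was between 14.7 and 19.1 FPKM in all 14 samples and was not called in any of the 4 comparisons with FAK KO.

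Lig1 (chromosome 7, 13277283 to 13311433), the ligase that seals lagging-strand fragments, read 27.6, 27.9 and 26.05 FPKM in KMF, 12.8, 13.04 and 13.6 in FAK KO, 17.4 and 16.7 in FAK-R454, 22.6, 21.8 and 17.3 in FAK-WT and 20.02, 21.4 and 20.99 in β-catenin ΔGSK samples. FAK KO samples were the lowest and KMF samples the highest, both with no overlap. Lig1 was at a log2 fold change of 1.04 (SE 0.06, adjusted p = 4.65e-06) in KMF, 0.66 (SE 0.07, adjusted p = 5.39e-05) in β-catenin ΔGSK, 0.63 (SE 0.10, adjusted p = 0.00239) in FAK-WT and 0.37 (SE 0.07, adjusted p = 0.00897) in FAK-R454 versus FAK KO cells. In KMF cells this was 2.07 times the FAK KO level.

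Dna2, a nuclease and helicase of lagging-strand processing, read 1.22, 1.20 and 1.20 FPKM in KMF, 0.677, 0.633 and 0.875 in FAK KO, 1.03 and 0.812 in FAK-R454, 0.976, 0.859 and 0.618 in FAK-WT and 1.64, 1.78 and 1.59 in β-catenin ΔGSK samples. β-catenin ΔGSK samples were the highest with no overlap, followed by KMF. On the log2 scale Dna2 differed from FAK KO by 0.67 in KMF and by 1.11 in β-catenin ΔGSK cells (SE 0.17 and 0.17). These are given as a description, since Dna2 passed the filter through the higher line alone, and it was not tested in FAK-WT or FAK-R454 versus FAK KO cells. The value rests on 68 to 193 fragments per library. Fen1, the flap nuclease, was listed at 0.308 to 1.01 FPKM, or 22 to 67 fragments, and was tested in no comparison. Of its exon bases 78.8% lie in the antisense gene Gm10143, itself at 0.0399 to 0.101 FPKM, so that the low level of Fen1 mRNA in this table is uncertain.

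The enzymes of nucleotide supply differed by line. Rrm1, the large subunit of ribonucleotide reductase, read 31.6, 29.7 and 31.8 FPKM in KMF, 30.8, 27.6 and 29.6 in FAK KO, 29.5 and 27.6 in FAK-R454, 30.5, 31.7 and 25.7 in FAK-WT and 50.7, 45.04 and 44.2 in β-catenin ΔGSK samples. The 3 β-catenin ΔGSK samples stood far above the other 11, which overlapped. Rrm1 rose by 0.67 in β-catenin ΔGSK relative to FAK KO cells (SE 0.08, adjusted p = 1.16e-04) and was at 0.08 in KMF and -0.01 in FAK-WT cells (adjusted p = 0.328 and 0.948, limma). Rrm2, the small subunit, rose in both KMF (0.70, adjusted p = 5.64e-05) and β-catenin ΔGSK cells (0.53, adjusted p = 6.20e-04), and was at 0.29 in FAK-WT cells (adjusted p = 0.151), or at 0.48 (SE 0.07, adjusted p = 0.00214) without replicate 3.

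Tk1, the thymidine kinase of S phase, read 33.8, 33.5 and 33.1 FPKM in KMF, 18.2, 19.9 and 20.1 in FAK KO, 23.7 and 22.6 in FAK-R454, 29.2, 30.6 and 21.9 in FAK-WT and 32.6, 32.9 and 35.6 in β-catenin ΔGSK samples. FAK KO samples were the lowest with no overlap, and KMF and β-catenin ΔGSK samples were the highest. Its log2 fold change relative to FAK KO was 0.79 (SE 0.06, adjusted p = 2.33e-05) in KMF, 0.79 (SE 0.07, adjusted p = 2.73e-05) in β-catenin ΔGSK, 0.47 (SE 0.12, adjusted p = 0.0163) in FAK-WT and 0.26 (SE 0.07, adjusted p = 0.0441) in FAK-R454 cells. Tk1 was not called in FAK-WT relative to FAK KO cells without FAK KO replicate 1 or FAK-WT replicate 2 (adjusted p = 0.0548 to 0.0621, limma). In FAK-R454 cells it was at 0.18 (adjusted p = 0.105, limma) with each chromosome centred, and its adjusted p was 0.115 with the replicate number as a block. Tyms, thymidylate synthase, was not called with all samples in any of the 4 comparisons with FAK KO, and was at 0.31 (SE 0.08, adjusted p = 0.0181) in FAK-WT cells without replicate 3.

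Timeless and Tipin encode a pair of proteins that protect the fork. Timeless read 9.53, 9.69 and 9.46 FPKM in KMF, 3.52, 4.503 and 4.03 in FAK KO, 4.92 and 5.25 in FAK-R454, 6.52, 6.52 and 4.98 in FAK-WT and 5.71, 5.60 and 6.20 in β-catenin ΔGSK samples. FAK KO samples were the lowest and KMF samples the highest, both with no overlap, at 4.02 ± 0.490 and 9.56 ± 0.119 FPKM (SD, n = 3 each). Timeless had a log2 fold change of 1.24 (SE 0.10, adjusted p = 1.89e-05) in KMF, 0.56 (SE 0.13, adjusted p = 0.0121) in FAK-WT, 0.53 (SE 0.11, adjusted p = 0.00299) in β-catenin ΔGSK and 0.34 (SE 0.12, adjusted p = 0.0799) in FAK-R454 versus FAK KO cells. Tipin, the protein partner of TIMELESS, read 17.6, 18.04 and 21.97 FPKM in KMF, 15.5, 11.46 and 13.7 in FAK KO, 13.9 and 13.6 in FAK-R454, 13.8, 14.2 and 12.4 in FAK-WT and 19.5, 14.2 and 14.5 in β-catenin ΔGSK samples. It was called higher in KMF relative to FAK KO cells (0.50, SE 0.12, adjusted p = 0.00910) and was at -0.00130 in FAK-WT cells (adjusted p = 0.993).

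FAK-WT and FAK-R454 cells differ by the kinase activity of the re-expressed FAK, and also in Ptk2 mRNA, given above. With all samples 0 of 48 replication genes were called higher and 0 lower between them, by limma as by limma-voom, where 3.38% and 4.44% of all genes were, and 4 genes (Orc3, Rpa3, Dscc1 and Pold3) had an unadjusted p under 0.05. The median log2 fold change was 0.12, against -0.05 for all genes tested. Of the 48, 40 were above 0, and the share of all genes above 0 was not counted. The absence of calls depended on FAK-WT replicate 3, the library that these same genes set apart. Calls gained by leaving it out describe its weight and are no separate test. Without replicate 3, 24 of 48 replication genes were called higher in FAK-WT cells (12.8% of all genes) and 2 lower (15.3% of all genes). With FAK-WT replicate 1 or 2 left out instead, 0 gained a call (1.33% and 0.543% of all genes higher).

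Among the 24, Dscc1 went from 0.63 (SE 0.20, adjusted p = 0.116) to 0.82 (SE 0.12, adjusted p = 0.00187) without replicate 3. Recql4 went from 0.42 (SE 0.18, adjusted p = 0.196) to 0.58 (SE 0.12, adjusted p = 0.00890), and Rrm2 from 0.27 (SE 0.18, adjusted p = 0.386) to 0.47 (SE 0.05, adjusted p = 7.52e-04). Standard errors shrank in each of these as the values rose. Genes of chromosome 15, which holds Recql4 and Dscc1, lay 0.20 above the others in this comparison, and with all samples and each chromosome centred Recql4 was at 0.22 (adjusted p = 0.512, limma) and Dscc1 at 0.43 (adjusted p = 0.279). Also called higher without replicate 3 were 5 of 6 MCM2-7 subunits (Mcm2, Mcm3, Mcm5, Mcm6 and Mcm7), all 3 genes of helicase loading (Cdc6, Cdt1 and Gmnn), Orc6, Cdc45, Gins2, Gins4, Pold1, Pole, Pcna, Rfc5, Rpa2, Lig1, Tk1, Tyms and Timeless. The 2 lower genes were Orc3 (-0.26, SE 0.07, adjusted p = 0.0265) and Rpa3 (-0.20, SE 0.06, adjusted p = 0.0437). The comparison without replicate 3 holds 2 samples on each side, and 15 of 20 mitosis genes were called higher in it and 0 lower, against 0 and 0 with all samples.

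**Figure D4:**
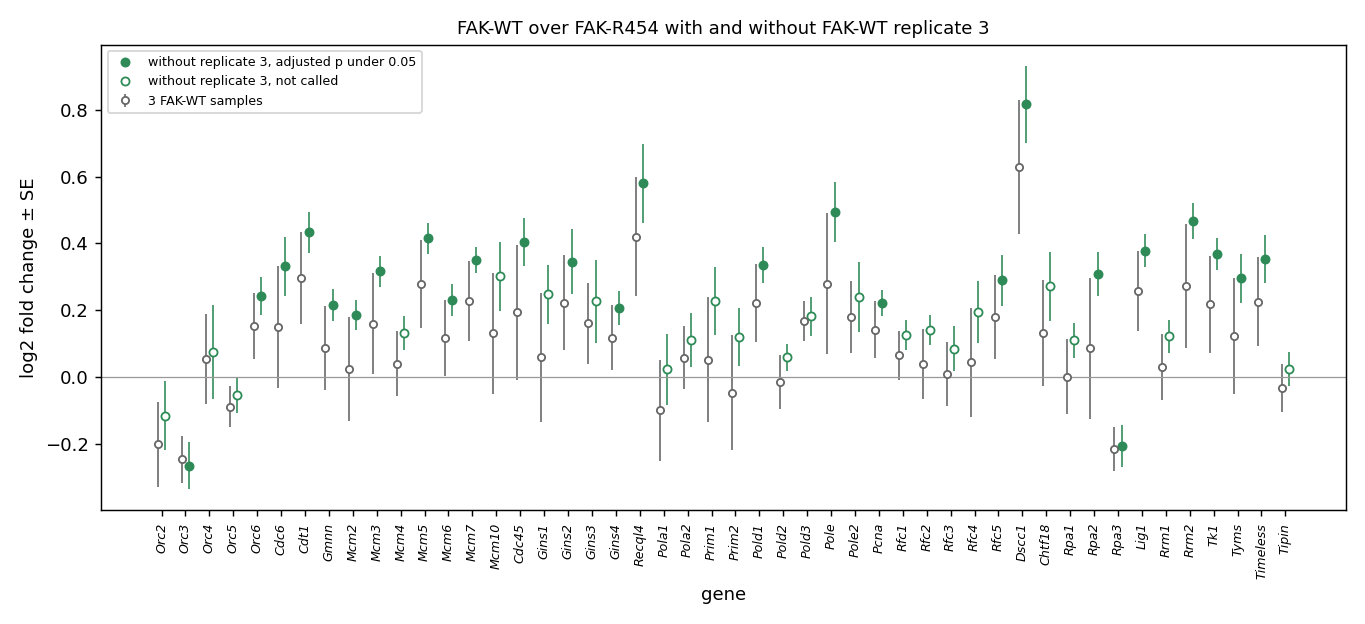
Log2 fold change with its standard error of 48 replication genes in FAK-WT over FAK-R454 cells, with all 3 FAK-WT samples (grey) and without FAK-WT replicate 3 (green, filled where the adjusted p is under 0.05). Most green points lie above the grey ones with shorter bars, and 26 of them are filled.

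With all samples FAK-WT cells stayed below the KMF level of some of these genes. Between FAK-WT and KMF cells 19 of 50 replication genes were called lower (23.5% of all genes) and 0 higher (18.2% of all genes; 0 higher by limma-voom as well, and 26 at an unadjusted p under 0.05 in either direction). Without FAK-WT replicate 3, 18 were lower (23.5% of all genes) and 3 higher (19.8% of all genes), namely Mcm7, Gins4 and Dscc1. The lower genes then lost Orc6, Cdt1 and Rpa3 (adjusted p = 0.0523 to 0.1002) and gained Rrm2 and Tk1. Prim1 fell furthest, by 0.94 on the log2 scale (SE 0.15, adjusted p = 0.00261, limma), with FAK-WT samples at 2.94 to 4.65 FPKM and KMF samples at 7.25 to 7.37. Timeless fell by 0.67 (adjusted p = 0.00259) and Mcm3 by 0.66 (adjusted p = 0.00569). In each of the 3 the FAK-WT and KMF samples did not overlap.

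The 19 included 4 MCM2-7 subunits (Mcm3, Mcm4, Mcm5 and Mcm6), 3 of polymerase α-primase (Prim1, Prim2 and Pola1), 4 of the clamp group (Pcna, Rfc3, Rfc4 and Chtf18) and both fork protection genes. The others were Orc2, Orc6, Cdt1, Mcm10, Rpa3 and Lig1. Mcm10, Mcm4, Mcm5, Pola1, Prim1, Timeless and Tipin were called lower in each alternative that tested them and set no fold threshold. Without KMF replicate 2 the count was 12 of 50 (18.3% of all genes), near the background. Prim2 was not called in FAK-WT over KMF cells without KMF replicate 3 (adjusted p = 0.0532, limma). Cdt1 was not called in FAK-WT over KMF cells without KMF replicate 1 or 2 or FAK-WT replicate 1 or 3 (adjusted p = 0.0796 to 0.144, limma). Under median-of-ratios scaling Cdt1 was at -0.41 (adjusted p = 0.0604). Chtf18 was not called in FAK-WT over KMF cells without KMF replicate 1 or 2 (adjusted p = 0.0776 to 0.0834, limma). Pcna was not called in FAK-WT over KMF cells without KMF replicate 1, 2 or 3 (adjusted p = 0.0510 to 0.101, limma). Rfc3 was not called in FAK-WT over KMF cells without KMF replicate 1 or 2 or FAK-WT replicate 2 (adjusted p = 0.0601 to 0.0649, limma). Lig1 was not called in FAK-WT over KMF cells without KMF replicate 1 or 2 (adjusted p = 0.0547 to 0.0548, limma). Orc6 was not called in FAK-WT over KMF cells without KMF replicate 1, 2 or 3 or FAK-WT replicate 1 or 3 (adjusted p = 0.0555 to 0.0921, limma). Rpa3 was not called in FAK-WT over KMF cells without KMF replicate 2 or FAK-WT replicate 1 or 3 (adjusted p = 0.0523 to 0.0903, limma). With the replicate number as a block Pcna and Orc6 were not called either (adjusted p = 0.0572 and 0.0733, limma). Genes of chromosome 1, which holds Mcm3, Mcm6, Orc2 and Prim2, lay 0.32 below those of the other chromosomes in FAK-WT over KMF cells. With each chromosome centred Mcm3 was at -0.37 (adjusted p = 0.1005, limma), and 8 other calls were lost (adjusted p = 0.0539 to 0.325). Mcm6 went from -0.45 to -0.16, Orc2 from -0.58 to -0.29, Prim2 from -0.59 to -0.30, Pcna from -0.27 to -0.17 and Rfc4 from -0.57 to -0.40. Chtf18 moved less, from -0.54 to -0.48, as did Cdt1, from -0.44 to -0.39, and Orc6, from -0.30 to -0.25. Pola2 was at 0.01 (adjusted p = 0.912) and, with each chromosome centred, at -0.31 (adjusted p = 0.0235, limma). Calls were also gained by 5 other replication genes with each chromosome centred, among them Recql4 at -0.70 (adjusted p = 0.0106, limma). Over all genes 2137 of 11847 were lower with each chromosome centred, where 2783 were without centring.

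Genes of neighbouring processes, from lists of related genes, were counted in the same fits, and the shares of all genes called in each direction, given above, are the background of these counts (15.6% higher and 25.2% lower for FAK-WT, 23.7% and 34.4% for β-catenin ΔGSK, 23.1% and 28.7% for KMF and 9.78% and 9.89% for FAK-R454 versus FAK KO cells). Of 8 genes of chromatin assembly behind the fork, 3 were called higher in FAK-WT (Chaf1a, Uhrf1 and Dnmt1) and 1 lower (Asf1a), and 6 were higher in β-catenin ΔGSK relative to FAK KO cells (Chaf1a, Chaf1b, Asf1b, Nasp, Uhrf1 and Dnmt1). Uhrf1, which guides maintenance DNA methylation, rose by 0.70 in both of these lines (adjusted p = 0.0111 and 4.79e-05, limma). In KMF cells 5 were higher and in FAK-R454 cells 3, with 0 lower in either. Of 20 other replisome and initiation factors, 4 were higher in FAK-WT (Mtbp, Pold4, Mms22l and Tonsl) and 1 lower (Top1), and 7 were higher in β-catenin ΔGSK cells (Wdhd1, Clspn, Ticrr, Mtbp, Topbp1, Pole3 and Chtf8) and 1 lower (Pold4). The counts were 9 higher and 2 lower in KMF cells, and 1 of 19 tested higher and 0 lower in FAK-R454 cells, so that shares called higher lay near the background in FAK-WT and FAK-R454 cells. Of 10 other enzymes of nucleotide supply, 0 were higher in FAK-WT cells and 1 lower (Rrm2b). In β-catenin ΔGSK cells 3 were higher, Dctd and Impdh2 among them, and 3 lower (Rrm2b, Tk2 and Cad). In KMF cells 7 were higher and 0 lower, and in FAK-R454 cells 0 were called either way.

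Of 18 genes of the E2F and pocket protein families, 1 was higher in FAK-WT relative to FAK KO cells (E2f4) and 3 lower (E2f6, Tfdp2 and Lin52). In β-catenin ΔGSK cells 9 were higher (E2f1, E2f4, E2f6, E2f7, E2f8, Tfdp1, Tfdp2, Rbl1 and Mybl2) and 1 lower (E2f2), and E2f7, a repressor of the family, rose most, by 1.53 (adjusted p = 4.54e-05, limma). In KMF cells 9 were higher and 3 lower, and in FAK-R454 cells 1 was higher and 0 lower. Of 8 S-phase cyclins and kinases, Ccna2 was higher in FAK-WT (0.42, adjusted p = 0.0375) and β-catenin ΔGSK cells (1.00, adjusted p = 2.65e-05), and Cdc25a, Cks1b, Skp2 and Fbxo5 were higher in β-catenin ΔGSK cells. In KMF cells 6 of the 8 were higher and in FAK-R454 cells 1, with 0 lower.

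Of 20 mitosis genes, all 20 were called higher in KMF and all 20 in β-catenin ΔGSK relative to FAK KO cells, 8 in FAK-WT (Bub1b, Cdk1, Aurkb, Plk1, Cenpa, Cdc20, Ndc80 and Spc24) and 6 in FAK-R454 cells, with median log2 fold changes of 0.75, 0.81, 0.40 and 0.23. Without FAK-WT replicate 3 the counts in FAK-WT relative to FAK KO cells were 16 of 20 mitosis genes higher, 6 of 8 genes of chromatin assembly, 5 of 20 other replisome factors (1 lower), 4 of 18 E2F and pocket protein genes (2 lower), 3 of 8 S-phase cyclins and kinases and 0 of 10 other enzymes of nucleotide supply, where 16.7% of all genes were higher and 22.1% lower. Of 10 housekeeping genes, 2 were higher and 2 lower in KMF, 4 higher and 1 lower in β-catenin ΔGSK, 1 higher and 0 lower in FAK-R454, and 1 higher and 3 lower in FAK-WT versus FAK KO cells (3 and 3 without replicate 3). Per library, the median of the 51 replication genes over the FAK KO mean was 0.54, 0.59 and 0.47 in KMF, 0.37, 0.27 and 0.28 in β-catenin ΔGSK, 0.45, 0.33 and -0.04 in FAK-WT and 0.12 and 0.12 in FAK-R454 samples. The FAK KO samples themselves were at 0.01, -0.02 and 0.03, so that FAK-WT replicate 3 was level with them and the other 10 libraries were above.

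**Figure D5:**
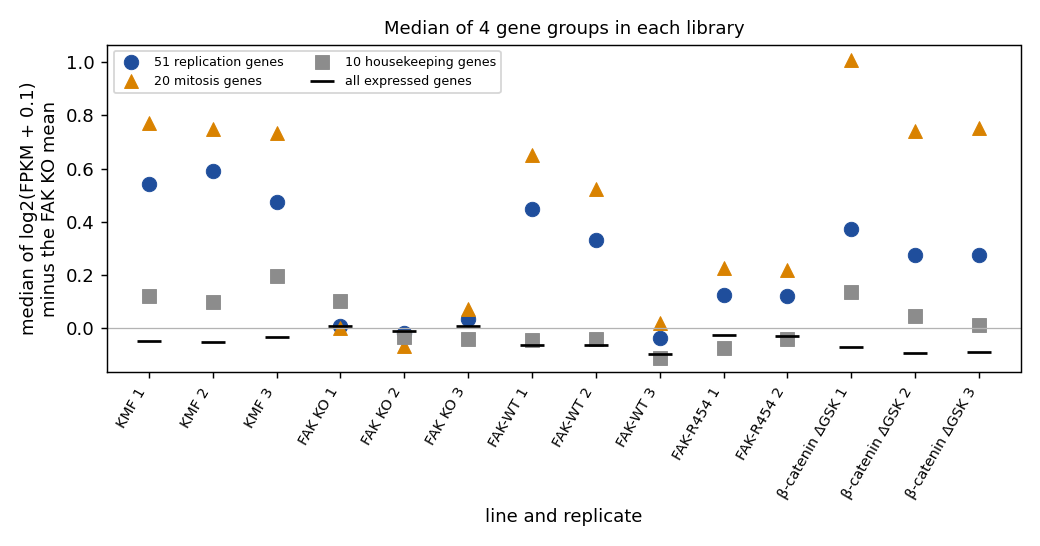
Median of log2(FPKM + 0.1) minus the FAK KO mean in each library, for the 51 replication genes (blue circles), 20 mitosis genes (orange triangles), 10 housekeeping genes (grey squares) and all expressed genes (black bars). Circles and triangles are near 0 in FAK KO and in FAK-WT replicate 3 and above 0 in the other 10 libraries, while housekeeping genes lie between -0.11 and 0.20 in all 14.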

How the data were processed

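RNA was measured by poly(A) sequencing (NEBNext Ultra libraries, not stated to be stranded, 150 bp paired-end reads). The values are FPKM that the authors computed per gene and deposited for 14 samples. The methods name TopHat2 for mapping, and the submitters' processing notes name STAR 2.5, CASAVA 1.8, DESeq2 and mm10. Columns of the authors' own comparisons, which hold fold changes and p-values, were not used. Gene lengths deposited in the same table gave whole fragments (tolerance 0.01) for 100% of the values above 0, with 25390558 to 35289859 fragments per library, so depth limits the low genes Fen1, Orc1 and Dna2.

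Samples were grouped by their labels. Genes with a mean above 1 FPKM in at least 1 of the compared lines were tested on log2(FPKM + 0.1) with limma 3.58.1 (R 4.3.3, lmFit and eBayes with a trend, samples of both lines), with Benjamini-Hochberg adjusted p-values over all genes tested, in 6 comparisons. A fold change on this scale understates the change of low genes. The fit was tested on simulated data. The members and lists were chosen with earlier results of these data known. Values of every sample were given for the 3 members with the largest called rises and falls in each comparison, for the highest and lowest of each complex in FAK-WT over FAK KO cells, and for Recql4 and Dscc1, and a few more were named after their values were seen. Genes of other lists, housekeeping genes aside, were named where called in FAK-WT or β-catenin ΔGSK over FAK KO cells, except a few that are not reported here. Alternatives were pseudocounts of 1 and 0.01, no filter and a filter at 5 FPKM, a fold threshold, no trend, median-of-ratios scaling, 1 fit of all 5 lines, the replicate number as a block, limma-voom on recovered fragments, each chromosome centred and each library left out. Replicate numbers were not taken to pair the samples. Sequences and promoter windows were taken from RefSeq (GRCm38.p6). Tables were handled with data.table (version 1.17.8), Python 3.11.15 and pandas 2.3.3, and drawn with matplotlib 3.10.9.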

Additional observations from a re-analysis of the deposited data

How the results depend on the processing

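Counts of replication genes called higher or lower moved with a fold threshold, single libraries, chromosome centring and median-of-ratios scaling. They also moved with the replicate block, most between FAK-WT and FAK-R454 cells. At a log2 fold change of at least 1 the counts were 0 higher and 0 lower in FAK-WT and in FAK-R454 over FAK KO cells, 2 higher and 0 lower in β-catenin ΔGSK, 8 higher and 0 lower in KMF over FAK KO cells, and 0 lower in FAK-WT over KMF cells, which follows from the small folds. Without a filter FAK-R454 over FAK KO gave 3 of 51 higher and 0 lower, near the background of 853 and 673 of 21562 genes. With a mean above 5 FPKM it gave 0 of 34 lower (936 of 8777 genes). KMF over FAK KO then gave 1 of 39 lower (2654 of 8902 genes). Fewer members are tested with that filter. FAK-WT over FAK-R454 gave 1 higher in 1 fit of all 5 lines, where the cause was not tested. With 1 library left out, higher and lower counts ranged from 6 to 31 and 2 to 5 in FAK-WT over FAK KO cells. They were 22 to 25 and 3 to 6 in β-catenin ΔGSK and 33 to 37 and 1 to 3 in KMF over FAK KO cells. In FAK-WT over KMF cells they were 0 to 3 and 12 to 19. With both FAK-R454 samples kept, FAK-R454 over FAK KO gave 3 to 10 and 0 to 5. FAK-WT over FAK-R454 then gave 0 to 24 and 0 to 2. Fits without a FAK-R454 sample leave 1 in that line and are not counted here. The shares of all genes called higher in these fits ranged from 10.1% to 16.7%, 19.8% to 24.8%, 18% to 23.7%, 12.8% to 19.8%, 5.87% to 16.3% and 0.543% to 12.8%, in the same order. Those called lower ranged from 13% to 27.4%, 27.8% to 36.4%, 21.7% to 29.1%, 17% to 23.5%, 4.1% to 20.8% and 0.789% to 15.3%. With the replicate number as a block FAK-WT over FAK-R454 gave 26 higher (13.3% of all genes) and 2 lower (15.5%), since FAK-WT replicate 3 has no partner there and drops out of the contrast. Same-numbered samples of FAK-WT and FAK KO correlated at -0.09, -0.07 and -0.24 in their deviations from the line means, those of KMF and FAK KO at -0.18, 0.15 and -0.27, and those of β-catenin ΔGSK and FAK KO at 0.48, 0.32 and 0.0972. Since no comparison had every pair above 0.1, the numbers were not taken to pair the samples, although all 3 pairs were positive for β-catenin ΔGSK, where the block gave 30 higher and 6 lower replication genes and moved the calls over all genes from 2828 higher and 4100 lower to 3330 and 4823. Calls were also lost without a filter (Mcm6, Gins2, Pold2, Pole2 and Chtf18 in FAK-WT, Orc4, Mcm2, Mcm5 and Tk1 in FAK-R454, Pola1 and Rfc4 in β-catenin ΔGSK and Orc2 in KMF over FAK KO, and Orc6, Cdt1 and Pcna in FAK-WT over KMF cells), without a trend (Mcm6 and Pold2 in FAK-WT, Mcm2 and Tk1 in FAK-R454 and Mcm7 in KMF over FAK KO, and Cdt1 in FAK-WT over KMF cells), in 1 fit of all 5 lines (Mcm2 and Tk1 in FAK-R454 and Orc2, Mcm7 and Rpa2 in KMF over FAK KO, and Rpa3 in FAK-WT over KMF cells) and by limma-voom (Rfc4 in β-catenin ΔGSK over FAK KO and Rpa3 in FAK-WT over KMF cells). With each chromosome centred Pola2 turned from 0.01 to -0.31 in FAK-WT over KMF cells. Median-of-ratios scaling moved the median of all genes by 0.107 in β-catenin ΔGSK over FAK KO cells. It moved the share of calls that were higher, over all genes, from 38.3% to 53.4% in FAK-WT over FAK KO, from 40.8% to 53.8% in β-catenin ΔGSK over FAK KO and from 43.2% to 58.2% in FAK-WT over FAK-R454, and gave 21, 33 and 0 replication genes higher. Over all genes 2377 of 11820, 3666 of 11909 and 541 of 11772 were then higher, where 1851, 2828 and 398 were without this scaling.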
